A study of Mus musculus with 2 samples.

Results

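The genes described are 9 core members of the Hedgehog signalling pathway: the ligand gene Shh, the co-receptor genes Boc and Cdon, the receptor gene Ptch1, the ligand-binding inhibitor gene Hhip, the transducer gene Smo, and the transcription factor genes Gli2, Gli3 and Gli1. They were taken by symbol from the gene list of the data, where each matched 1 of 55416 genes. The match itself used no measured value, but earlier results of these data were known when the members were chosen. Every member was detected in both libraries.

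In this pathway, Sonic hedgehog protein is released by a few organising cells, among them the floor plate, and binds the receptor Patched 1 on neighbouring cells. Without ligand, Patched 1 holds Smoothened inactive and GLI3 is largely processed to a repressor. With ligand, Smoothened acts through the primary cilium on the GLI proteins, and Ptch1, Hhip and Gli1 are themselves transcribed as targets. In the developing brain the pathway is known for ventral patterning and for the growth of progenitors.

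Nuclei of fetal mouse whole brain were profiled by single-nucleus RNA-seq, in 1 library labelled wildtype and 1 labelled as a knockout of Cav1, the gene of the membrane protein caveolin 1. The labels give no embryonic day, strain, sex, allele, litter or number of embryos for either library, and both were made from frozen tissue with droplet capture of nuclei and tags near the 3′ ends of transcripts. The values are counts of unique molecular identifiers (UMIs), each standing for 1 captured transcript. With 1 library per genotype no test between genotypes was possible, and every difference below is between 2 libraries. Intervals are 95% intervals for counting error only. Pairs of values are given for the wildtype-labelled library first and the knockout-labelled library second, and log2 ratios are knockout-labelled over wildtype-labelled.

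The targeted gene did not separate the libraries. Cav1 had 71 and 80 UMIs, a log2 ratio of -0.04 (interval -0.52 to 0.45). The labels do not say which part of Cav1 was deleted, so 3′ tags may lie outside it. Its neighbour Cav2 had 19 and 764 UMIs. The libraries are therefore called by their labels throughout.

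After keeping barcodes with at least 500 detected genes and at most 5% mitochondrial UMIs, 6686 of 9763 and 6680 of 10811 nuclei remained, with medians of 2134 and 2366 UMIs per nucleus. The lists held 43 barcodes in common, of which 10 were kept in both libraries. The libraries also differed in makeup. Hox genes, which mark hindbrain and spinal cord, summed to 32 and 554 UMIs. The part of this makeup in the values below was tested only as far as cluster makeup could be equalised.

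The 23 clusters of nuclei were built without the 9 members. Clusters carry a number and, where fixed marker genes allowed it, a name ending in "-like". Cluster 11 was radial glia-like (520 and 324 nuclei, 6 of its markers, and 7 markers of dividing cells), radial glia being the neural stem cells of the developing brain. Cluster 17 was intermediate progenitor-like (300 and 218 nuclei) and cluster 19 fibroblast-like (107 and 110 nuclei, all 7 fibroblast markers). Cluster 12 (308 and 306 nuclei) held dividing nuclei with Dlx genes and radial glia markers and stayed unnamed. Cluster 1 (141 and 238 nuclei) was led by Cyp26b1, Pdlim3, Pax3, Dbx2 and Egfr. It had all 5 oligodendrocyte precursor markers, but only 20.3% of its nuclei lay in sub-clusters with those markers, so it also stayed unnamed. When it was split further, each of its sub-clusters had at least 3 radial glia markers raised over the other nuclei. Cluster 4 (645 and 1097 nuclei), led by Sim1, Pax5 and Snhg11, made up 9.65% and 16.4% of nuclei. Cluster 0 had a median of 740 and 706 UMIs per nucleus with haemoglobin genes among its leading genes, and cluster 8 had 5376 and 5450 with high doublet scores.

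Genome positions are on GRCm39 with GENCODE M39. Ptch1 and Gli3 lie on the same chromosome, at chr13:63656142-63721412 on the minus strand and chr13:15637809-15904611 on the plus strand. Shh lies at chr5:28661813-28672254 (minus), Boc at chr16:44305290-44379432 (minus), Cdon at chr9:35332424-35418948 (plus) and Hhip at chr8:80692480-80784658 (minus). Smo lies at chr6:29735407-29762532 (plus), Gli2 at chr1:118761858-118982598 (minus) and Gli1 at chr10:127165751-127177865 (minus). Use of strand in the counting is not given in the sources used here, and Gli1 overlaps Arhgap9 and Gm47200 on the opposite strand, so reads of these genes may not be separable from the few Gli1 UMIs. Shh overlaps 9530036O11Rik on the opposite strand, and Hhip overlaps Gm54713, Gm39206 and Gm53441 there. Boc, Cdon, Gli2 and Gli3 also overlap genes on the opposite strand. Boc, Cdon, Ptch1, Smo and Gli3 overlap other genes on their own strand.

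RefSeq promoter windows (GRCm38.p6, 250 bases before to 50 after the start, read along the gene's strand) were at hand for 6 of the 9 members, all but Shh, Boc and Gli1. The GLI binding consensus GACCACCCA, searched on both strands, was in 0 of the 6 windows and in 0.253% of all 32851 windows. Its core ACCACCC was in 1 of the 6, that of Gli2, and in 4.61% of all windows. The shorter CCACCC, which lies within both, was in 4 of the 6 (Hhip, Smo, Gli2 and Gli3) and in 31.5% of all windows. The windows of Gli2, the member with the core, and of Hhip, a target gene with the shorter match, are printed with matches in capitals. In Gli2 the first match reads GGGTGGT, the core on the other strand. The Gli2 window is chr1:119053570-119053869 (minus) and the Hhip window chr8:80057959-80058258 (minus). A match describes the letters only.
Gli2: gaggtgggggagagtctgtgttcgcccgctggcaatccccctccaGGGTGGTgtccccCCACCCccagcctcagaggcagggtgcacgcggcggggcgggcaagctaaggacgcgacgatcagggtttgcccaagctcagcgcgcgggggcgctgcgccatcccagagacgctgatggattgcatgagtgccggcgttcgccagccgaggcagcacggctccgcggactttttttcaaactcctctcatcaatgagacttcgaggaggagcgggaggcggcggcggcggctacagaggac
Hhip: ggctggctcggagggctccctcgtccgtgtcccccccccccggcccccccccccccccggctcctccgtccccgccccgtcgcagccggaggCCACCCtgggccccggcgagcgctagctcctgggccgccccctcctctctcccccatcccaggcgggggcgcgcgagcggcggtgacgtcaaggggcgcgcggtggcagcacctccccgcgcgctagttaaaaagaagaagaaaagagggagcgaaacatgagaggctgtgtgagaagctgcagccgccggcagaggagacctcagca

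Over both libraries together, radial glia-like cluster 11 held the highest level of Boc, Cdon, Smo, Gli2 and Gli3, the genes for receiving and transmitting the signal. The target gene Ptch1 was instead highest in cluster 1, and Gli1 in fibroblast-like cluster 19. The maps overlapped: cluster 1 was near cluster 11 in Boc, and cluster 12 ranked among the 3 highest clusters for Gli2, Gli3, Ptch1 and Gli1. Levels are CPM, the gene's UMIs scaled to a total of 1000000 UMIs in the same nuclei, and are compared between clusters within a gene. They are not compared between genes, because nuclear 3′ counts depend on each gene's length and sequence.

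**Figure D1:**
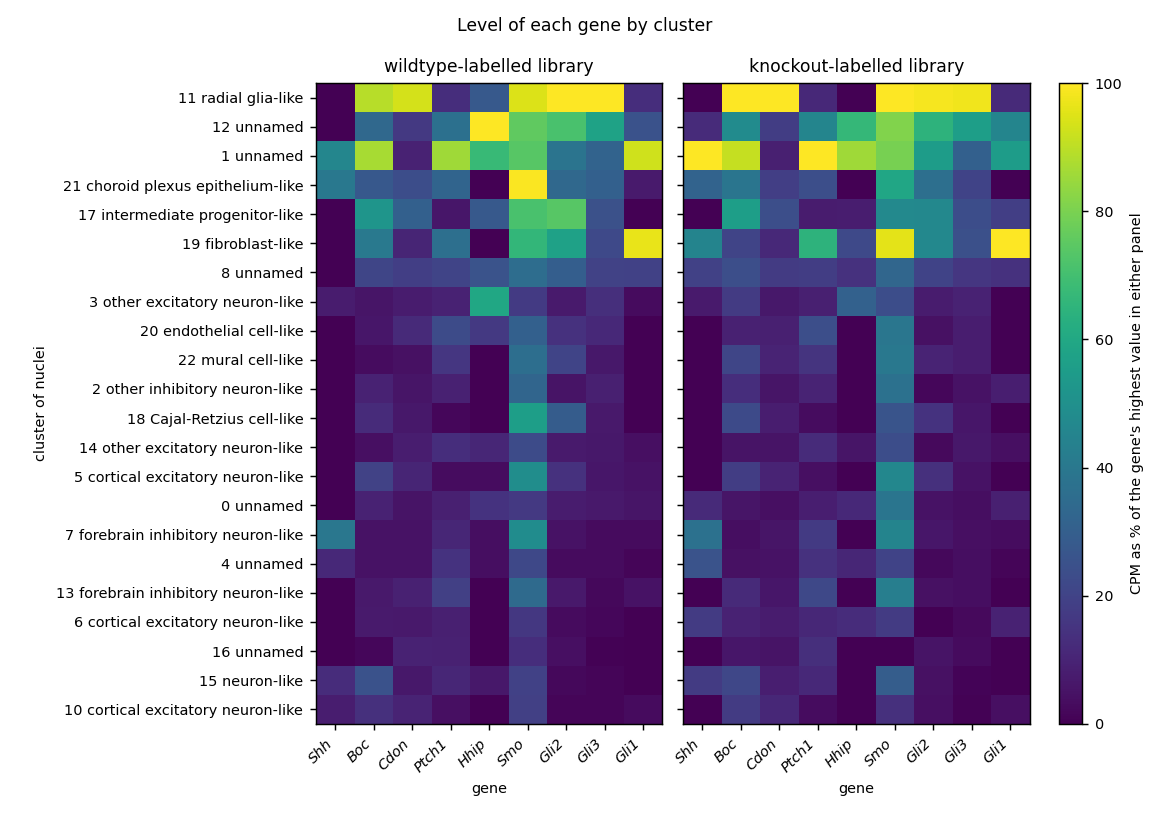
CPM of each of the 9 genes (columns) in the 22 clusters with at least 20 nuclei in both libraries (rows), as a percent of that gene's highest CPM in either panel. Cluster 11 stands high for Boc, Cdon, Smo, Gli2 and Gli3 in both libraries and low for Ptch1 and Gli1, which stand high in clusters 1 and 19.

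Shh, the ligand gene, was rare. It gave 15 and 41 UMIs in 13 and 37 nuclei, or 0.194% (interval 0.104 to 0.332) and 0.554% (interval 0.39 to 0.763) of nuclei. Of these nuclei, 3 and 13 were in cluster 4, 2 and 7 in cluster 1, and 4 and 2 in forebrain inhibitory neuron-like cluster 7. Cluster 8, with the most UMIs per nucleus, held 0 and 5. No Shh UMI was found in cortical excitatory neuron-like cluster 5 (0 of 643 and 0 of 465 nuclei). There a count of 0 allows up to 0.467% and 0.645% of nuclei with a Shh UMI. Radial glia-like cluster 11 also had none, which allows up to 0.577% and 0.926%. Further clusters held none either, among them other inhibitory neuron-like cluster 2 and intermediate progenitor-like cluster 17. At this depth such counts limit detection of Shh, not its expression. The low counts leave the order of clusters open to counting error: the highest, cluster 1, had 5.22 CPM (interval 0.632 to 18.9) and 11.4 CPM (interval 4.91 to 22.4), and its interval overlapped that of the next.

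Within cluster 1, Shh UMIs lay mostly in a pair of small sub-clusters. Sub-cluster 1.1 (7 and 13 nuclei) carried all 6 floor plate and ventral midline markers, Foxa1, Foxa2, Lmx1a, Spon1, Corin and Ntn1, and had 1 and 3 Shh UMIs. Sub-cluster 1.4 (22 and 38 nuclei), led by Tbx3os1, Cpm and Six3os1 among others, had 1 and 4. Over all 50 nuclei with a Shh UMI, Ntn1, a guidance cue made by the floor plate, was seen in 32% (interval 19.5 to 46.7) against 7.27% of the other nuclei. Spon1 was seen in 26% against 9.27%, and Lmx1a in 16% against 2.03%. Shares for the other markers of that list, Foxa1, Foxa2 and Corin, are not given here. Nuclei with a Shh UMI had a median of 3444 UMIs and the others 2233, and the part of depth in these gaps was not tested. Of the 50 nuclei, 9 were among the highest doublet scores.

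**Figure D2:**
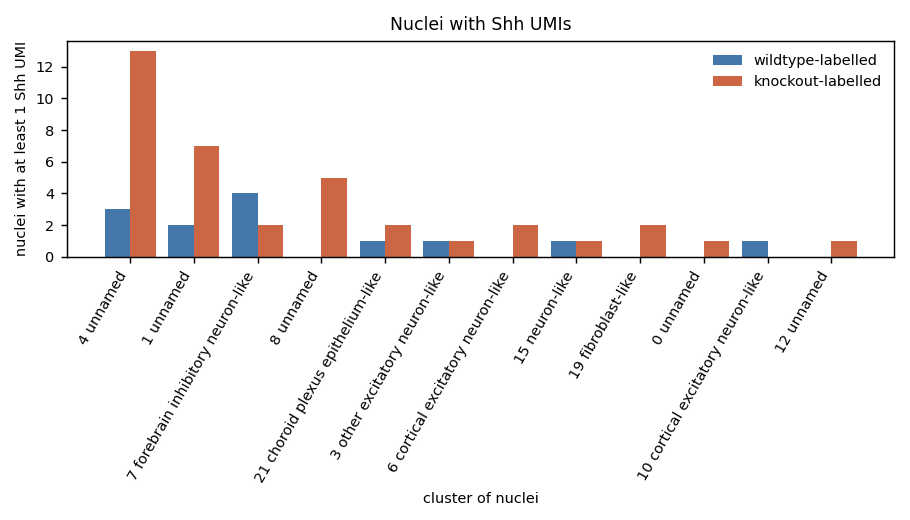
Number of nuclei with at least 1 Shh UMI (bars) in each cluster that held any, for the wildtype-labelled and knockout-labelled library. Cluster 4 held the most, with 3 and 13 nuclei, and cluster 1 had 2 and 7.

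Boc, a co-receptor that binds the ligand at the cell surface and also guides axons, was at 290 CPM (interval 261 to 322) and 325 CPM (interval 287 to 367) in radial glia-like cluster 11. Cluster 1 followed with 282 and 296 CPM, and the 2 clusters did not differ beyond their intervals. Intermediate progenitor-like cluster 17 had 169 and 182 CPM. Within cluster 1, Boc was highest in sub-cluster 1.3, led by Pax3, the heparan sulphate enzyme gene Hs3st3a1 and Pax7 among others, at 527 and 785 CPM. It was low in oligodendrocyte precursor-like sub-cluster 1.5, at 71.2 and 85.4 CPM.

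Cdon, the related co-receptor, was more concentrated. Radial glia-like cluster 11 had 1052 CPM (interval 995 to 1110) and 1122 CPM (interval 1050 to 1198), and held 41.9% and 30.9% of all Cdon UMIs. A UMI of Cdon was seen in 400 of 520 and 256 of 324 nuclei there, 76.9% and 79%. The next cluster, intermediate progenitor-like 17, had 344 and 271 CPM and was apart from cluster 11 in both libraries. Cluster 1, high in Boc, had 107 and 96.7 CPM of Cdon. Within it Cdon ran unevenly, with 14.6 and 29.9 CPM in sub-cluster 1.0 from 1 and 4 UMIs and 190 and 296 CPM in sub-cluster 1.3.

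Ptch1, the receptor that is also a target, had a different map. Cluster 1 was highest, with 391 CPM (interval 331 to 459) and 457 CPM (interval 408 to 509). Fibroblast-like cluster 19 followed with 167 and 296 CPM, and cluster 12 with 169 and 208 CPM. In radial glia-like cluster 11 it was at 59.8 and 52.1 CPM, within the range of the neuronal clusters. The lowest levels among clusters with more than 20 Ptch1 UMIs were in cortical excitatory neuron-like clusters 5 (15.7 and 18.9 CPM) and 10 (19.4 and 15.8 CPM).

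**Figure D3:**
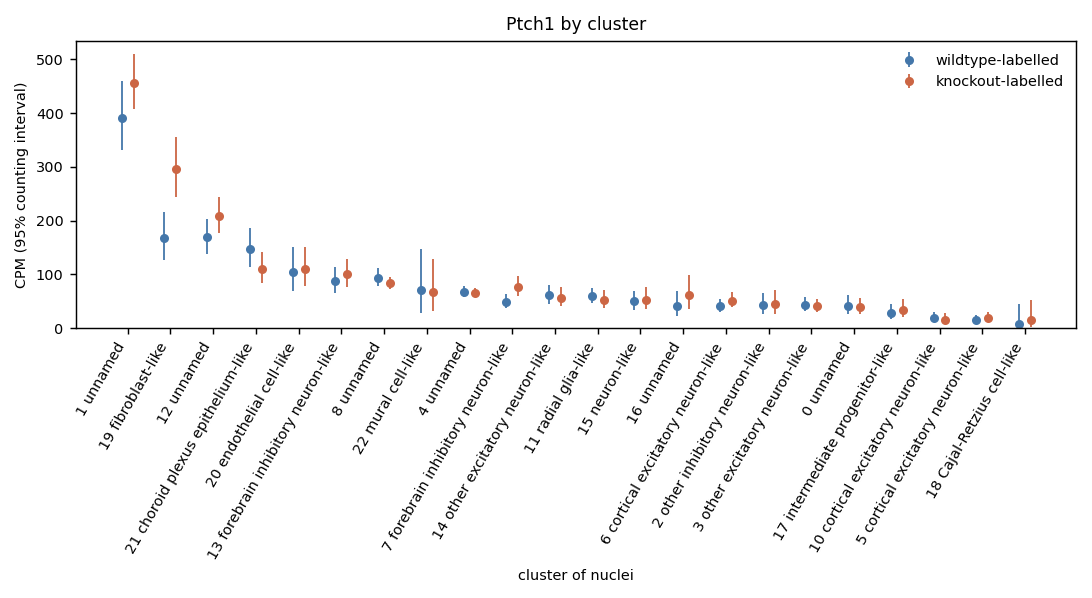
Ptch1 CPM (points) with 95% counting intervals (bars) in each cluster with at least 20 nuclei in both libraries, ordered by the level over both. Cluster 1 is above every other cluster in both libraries, and the libraries part most among the higher clusters in fibroblast-like cluster 19, at 167 and 296 CPM.

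The gap in Ptch1 between clusters was also seen at equal depth. With every nucleus thinned to 1000 UMIs, a Ptch1 UMI was seen in 26.5% and 31.6% of nuclei in cluster 1, against 50.4% and 55.5% before thinning. In cortical excitatory neuron-like cluster 5 the thinned share was 1.68% and 1.41%, and 3.27% and 3.87% before thinning. Median depths were 2411 and 2602 UMIs in cluster 1 and 1957 and 2000 in cluster 5. The part of free RNA common to all nuclei in these levels was not tested.

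Cluster 1 was uneven in Ptch1. The gene was highest in sub-clusters 1.0 and 1.4, both with radial glia markers such as Sox2, Hes5, Hes1 and Slc1a3. Sub-cluster 1.0, led by Pdlim3, Tnc and the GABA transporter gene Slc6a11, had 744 and 755 CPM, with a UMI in 91.7% of 24 and 78.3% of 46 nuclei. Sub-cluster 1.4 had 485 and 715 CPM, and oligodendrocyte precursor-like sub-cluster 1.5, with all 5 of its markers and 6 of the 7 dividing markers, had 356 and 388 CPM. Sub-cluster 1.3, highest in Boc, was lower in Ptch1, at 137 and 323 CPM. Floor plate and ventral midline-like sub-cluster 1.1 had 305 and 233 CPM from 7 and 8 UMIs. In cluster 12, Ptch1 was higher in sub-cluster 12.3 (255 and 389 CPM), which had radial glia and dividing markers and Ntn1 among its leading genes, than in Dlx-positive sub-cluster 12.1 (94 and 54.7 CPM).

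**Figure D4:**
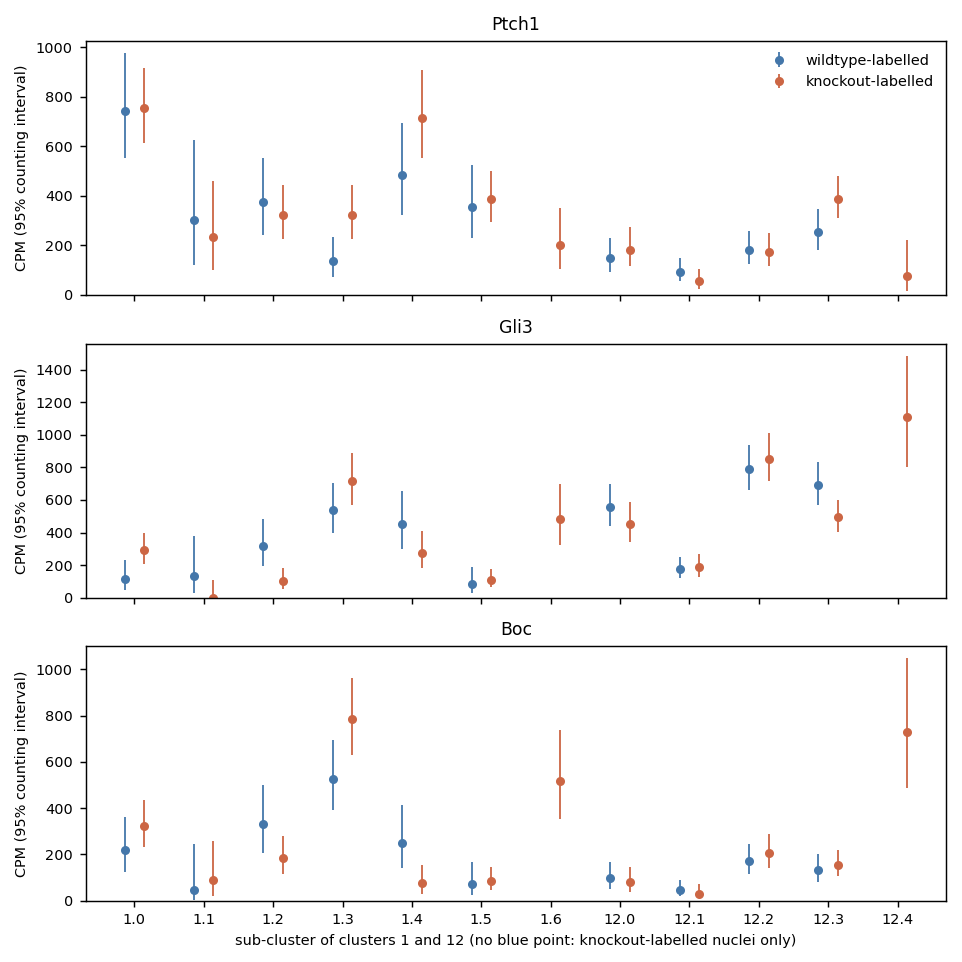
CPM (points) with 95% counting intervals (bars) of Ptch1, Gli3 and Boc in the sub-clusters of clusters 1 and 12, for both libraries. Ptch1 is highest in 1.0 and 1.4, while Boc is highest in 1.3 among sub-clusters found in both libraries, and Gli3 in 12.2. Sub-clusters 1.6 and 12.4 hold nuclei of the knockout-labelled library only.

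Hhip, whose product binds and withholds the ligand, gave 68 and 63 UMIs. Cluster 12 had 23.2 and 15.5 CPM and cluster 1 had 15.7 and 19.9 CPM. Other excitatory neuron-like cluster 3, led by Tfap2d and Pou4f1 among others, held 16 and 9 of the UMIs, at 13.8 and 7.22 CPM. These 3 clusters held 54.4% and 54% of Hhip UMIs, and their intervals overlapped. Cluster 11 had 8 and 0 UMIs of Hhip. In the wildtype-labelled library that was 6.47 CPM (interval 2.79 to 12.7), which overlapped the interval of cluster 1 (5.75 to 34.1). The 0 allows up to 3 UMIs.

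Smo, the transducer, was less concentrated in its highest clusters than Gli3. Radial glia-like cluster 11 had 107 CPM (interval 89.3 to 127) and 113 CPM (interval 90.9 to 139). Fibroblast-like cluster 19 had 74.5 and 108 CPM, cluster 12 had 85.1 and 91.4, and cluster 1 had 83.5 and 89.6. Choroid plexus epithelium-like cluster 21 had 112 and 66.8 CPM, so it was above cluster 11 in the wildtype-labelled library. In this order over both libraries, no neighbours differed beyond their intervals. The 3 highest clusters held 27.4% and 23.6% of Smo UMIs, against 58.7% and 51.1% for the 3 highest clusters of Gli3.

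Gli2, the main activator among the GLI factors, was at 297 CPM (interval 268 to 329) and 294 CPM (interval 258 to 334) in radial glia-like cluster 11. Cluster 12 had 212 and 193 CPM and intermediate progenitor-like cluster 17 had 221 and 139 CPM. Floor plate and ventral midline-like sub-cluster 1.1 had no Gli2 UMI in its 7 and 13 nuclei. In so few nuclei a count of 0 allows up to 42.9% and 23.1% of nuclei with a Gli2 UMI. Gli2 in cluster 10, of cortical excitatory neurons, was seen in 5 of 430 and 8 of 291 nuclei.

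Gli3, the main repressor among them, was at 948 CPM (interval 895 to 1004) and 926 CPM (interval 861 to 995) in cluster 11, with a UMI in 77.9% and 79.9% of nuclei. Cluster 12 had 546 and 532 CPM and cluster 1 had 303 and 292 CPM, and each step in this order was larger than its intervals. Within cluster 12 the level ran from 177 and 188 CPM in Dlx-positive sub-cluster 12.1 to 791 and 853 CPM in sub-cluster 12.2, which had 6 radial glia markers. Oligodendrocyte precursor-like sub-cluster 1.5, at 356 and 388 CPM of Ptch1, had 85.5 and 112 CPM of Gli3.

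Gli1, a factor transcribed when the pathway is active, gave 49 and 63 UMIs. Fibroblast-like cluster 19 had 29.8 CPM (interval 14.3 to 54.8) and 30.9 CPM (interval 15.9 to 53.9). Cluster 1 had 28.7 and 17.1 CPM and cluster 12 had 7.73 and 14.1 CPM. The first and second of these did not differ beyond their intervals, nor did the second and the third. Gli1 in radial glia-like cluster 11 was at 4.04 CPM (interval 1.31 to 9.43) and 3.72 CPM (interval 0.767 to 10.9), from 5 and 3 UMIs. Together the 3 highest clusters held 53.1% and 54% of Gli1 UMIs.

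Target genes were seen together in single nuclei. Of 45 and 54 nuclei with a Gli1 UMI, 18 and 27 also had a Ptch1 UMI, 40% (interval 25.7 to 55.7) and 50% (interval 36.1 to 63.9), against 12.6% and 15.9% of nuclei without Gli1. Nuclei with Gli1 were deeper, at medians of 3363 and 3546 UMIs against 2130 and 2361. Thinned to 1000 UMIs, 3 of 13 and 3 of 10 Gli1 nuclei had a Ptch1 UMI, 23.1% (interval 5.04 to 53.8) and 30% (interval 6.67 to 65.2), against 5.99% and 7.25% of the rest. Of nuclei with an Hhip UMI, 45.1% and 55.1% had Ptch1, and 13.6% and 15% when thinned, where the intervals reached down to 2.91% and 3.21%.

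Of 13 pairs of members examined, Gli2 and Gli3 had the largest share of nuclei with both. A Gli3 UMI was seen in 55.9% and 58.9% of nuclei with Gli2 and in 14.6% and 12.9% of the others. Thinned, the shares were 36.9% (interval 31.9 to 42.1) and 34.1% (interval 28.5 to 40), against 10.6% and 9.55%. By contrast, thinned nuclei with Ptch1 held Cdon in 9.94% (interval 7.02 to 13.6) and 8.87% (interval 6.29 to 12.1), and nuclei without Ptch1 in 13.6% and 11.5%. For Ptch1 and Smo the thinned shares were 5.4% and 5.42%, against 5.25% and 4.55%. The ligand and its receptor were in the same nucleus in 3 of 13 and 13 of 37 nuclei with a Shh UMI. Over all nuclei a Ptch1 UMI was seen in 12.8% and 16.2%. Nuclei with Shh were deeper, at medians of 3472 and 3415 UMIs against 2133 and 2362, and these counts are not at equal depth.

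Across the 22 clusters with at least 20 nuclei in both libraries, Gli2 and Gli3 were also each other's closest match among 12874 genes when these were ranked by the lower of the r values of the 2 libraries. Pearson's r of log2(CPM + 10) was 0.89 and 0.9 in the 2 libraries. The clusters share library, depth and ambient RNA, and r is a description. Next for both came Cdc14a, a phosphatase gene (0.91 and 0.89 with Gli2, 0.88 and 0.9 with Gli3). In single libraries other genes were closer, such as Creb5 to Gli2 (0.87 and 0.91). The remaining closest genes were Adamts6 and Cenph for Gli2, and Mtbp, Zhx2 and Rtkn2 for Gli3.

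The closest genes to Cdon were Gm29260, Tfap2c (0.9 and 0.82), Celsr1, Prdm16 and Creb5, of which Gm29260, Tfap2c and Creb5 were among the leading genes of cluster 11. Those to Boc were Veph1 (0.84 and 0.86), Sfxn5, Ltbp3, Ccdc136 and Mid1. Those to Ptch1 were Ildr2 (0.79 and 0.85), S100pbp, Mob3b, Qk and Ano1, and those to Smo were Zfand6 (0.8 and 0.8), Dcaf8, Stag2, Rad51b and Tead2. Over the same clusters, Ptch1 followed Gli1 (0.72 and 0.69) more closely than Cdon (0.17 and 0.07).

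Between the libraries, no member with at least 100 UMIs passed a 1.5-fold difference over all nuclei, 0 of 8, where 2.72% of the 15528 genes with as many UMIs did. Their median log2 ratio was -0.19, against -0.01 for all those genes. Shh, with 56 UMIs in all, was under that minimum. It was at 0.872 CPM (interval 0.488 to 1.44) and 2.06 CPM (interval 1.48 to 2.8), a log2 ratio of 1.24 (interval 0.36 to 2.20).

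Ptch1 was the only one of the 8 whose interval lay above 0, where 13.2% of all genes lay. It had 1176 and 1686 UMIs, 68.4 CPM (interval 64.5 to 72.4) and 84.8 CPM (interval 80.8 to 89), a log2 ratio of 0.31 (interval 0.20 to 0.42). The intervals of Cdon, Gli2 and Gli3, 3 of 8, lay below 0, where again 13.2% of all genes lay. All genes were not matched to the members for UMIs, and intervals narrow as UMIs rise. Cdon was at 181 and 147 CPM (log2 ratio -0.29, interval -0.37 to -0.22) from 3108 and 2928 UMIs. Gli2 was at 65.8 and 51.5 CPM (-0.35, interval -0.48 to -0.23) from 1132 and 1023 UMIs, and Gli3 at 163 and 131 CPM (-0.31, interval -0.39 to -0.23) from 2797 and 2605.

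The other 4 had intervals that spanned 0. Boc was at 68.9 and 70.8 CPM (log2 ratio 0.04) and Smo at 44.9 and 42.3 CPM (-0.09). Hhip was at 3.95 and 3.17 CPM (-0.32, interval -0.84 to 0.20) and Gli1 at 2.85 and 3.17 CPM (0.15, interval -0.41 to 0.72).

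The libraries held different shares of the clusters where these genes were highest. Radial glia-like cluster 11, highest in Cdon, Gli2 and Gli3, made up 7.78% and 4.85% of nuclei, while cluster 1, highest in Ptch1, made up 2.11% and 3.56%. With every cluster given the same weight in both libraries, the log2 ratio of Cdon was -0.03, of Gli3 -0.12, of Gli2 -0.19 and of Ptch1 0.12. Boc was then at 0.19, Smo at 0.00, Gli1 at -0.03, Hhip at -0.47 and Shh at 1.02. On this measure 0 of the 8 passed 1.5-fold, where 1.76% of all genes did. Their median was -0.03, against -0.01 for all.

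**Figure D5:**
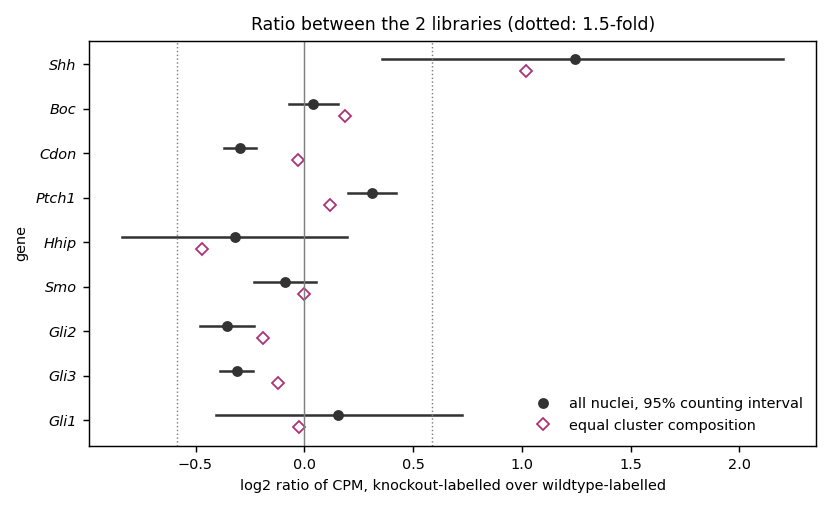
Log2 ratio of CPM between the libraries for each gene over all nuclei (filled points, with 95% counting intervals) and with clusters weighted equally in both libraries (open diamonds). Dotted lines mark 1.5-fold. The diamonds of Cdon, Ptch1, Gli2 and Gli3 lie nearer to 0 than their points, and those of Boc and Hhip lie further from 0.

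Within radial glia-like cluster 11 the intervals of 5 genes for receiving and transmitting the signal all spanned 0. The log2 ratio was 0.09 (interval -0.03 to 0.22) for Cdon, -0.03 (interval -0.17 to 0.10) for Gli3, -0.02 (interval -0.26 to 0.22) for Gli2, 0.16 (interval -0.07 to 0.40) for Boc and 0.08 (interval -0.32 to 0.48) for Smo. Hhip there had 8 and 0 UMIs and an interval below 0 (upper end -0.15), but too few UMIs to be counted. In this class 0 of 6 members were past 2-fold, where 3.35% of the 11114 genes with at least 20 UMIs there were. Among cortical excitatory neuron-like nuclei the count was 0 of 6 (2.41% of genes), among forebrain inhibitory neuron-like nuclei 0 of 6 (3.03%) and among intermediate progenitor-like nuclei 0 of 6 (4.38%). Other excitatory neuron-like nuclei had 1 of 7 (2.86%), which was Boc at a log2 ratio of 1.29.

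That Boc difference lay in cluster 3, with 22 and 70 UMIs, 19 and 56.1 CPM and a log2 ratio of 1.57 (interval 0.86 to 2.33). At a finer resolution, 5 and 49 of its nuclei joined a cluster led by Pax2, Hoxb3, Slc6a5 and Robo3, and these carried 8 and 44 of the Boc UMIs. That finer cluster held 30 and 173 nuclei in all, at 128 and 151 CPM of Boc (log2 ratio 0.23, interval -0.55 to 1.10). The 350 and 338 nuclei of cluster 3 that stayed in a cluster led by Tfap2d had 12 and 26 UMIs, and that cluster was at 13.5 and 22.5 CPM (log2 ratio 0.74, interval -0.23 to 1.76). At that resolution Boc did not pass 2-fold in other excitatory neuron-like nuclei.

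Over pairs of a member and a cluster with at least 20 UMIs, the interval lay outside 0 in 20 of 117, or 17.1%, where 8.41% of all such pairs of a gene and a cluster did. The ratio was below 0 in 14 (12% of pairs, against 4.22% of all) and above in 6 (5.13%, against 4.18%). Intervals narrow as UMIs rise, and the pairs of all genes were not matched to those of the members for UMIs. Fibroblast-like cluster 19 held opposite differences: Ptch1 had 56 and 115 UMIs, 167 and 296 CPM (log2 ratio 0.83, interval 0.35 to 1.31), and Boc had 44 and 26 UMIs, 131 and 66.9 CPM (-0.97, interval -1.73 to -0.24). Gli1 in these nuclei was at 29.8 and 30.9 CPM. In intermediate progenitor-like cluster 17, Gli2 was at 221 and 139 CPM (-0.67, interval -1.10 to -0.25) and Cdon at 344 and 271 CPM (-0.34, interval -0.66 to -0.03). Choroid plexus epithelium-like cluster 21 had lower Gli3 in the knockout-labelled library, at 291 and 191 CPM (-0.60, interval -0.99 to -0.22). Ptch1 in forebrain inhibitory neuron-like cluster 7, which was led by Nxph2 and Lhx6, was at 48.5 and 77.1 CPM (0.67, interval 0.14 to 1.20).

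Some of the sub-clusters were in 1 library only. Sub-cluster 1.6 (0 and 21 nuclei), led by Cyp26b1 and Pax3, had 519 CPM of Boc, 485 of Gli3 and 201 of Ptch1. Sub-cluster 12.4 (0 and 13 nuclei), with 2610027F03Rik, Cnpy1 and Boc itself among its leading genes, had 729 CPM of Boc and 1107 of Gli3. Over all nuclei Cyp26b1 had 104 and 808 UMIs, and Cnpy1 had 37 and 326, so these nuclei and the genes that lead them were both more frequent in the knockout-labelled library.

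Of 53 further genes of the pathway, 42 had at least 100 UMIs. Of these, 3 were past 1.5-fold higher in the knockout-labelled library, where 2.12% of all genes were, and 0 were past it lower, where 0.605% were. Their median log2 ratio was 0.02. The ligand genes Dhh (5 and 3 UMIs) and Ihh (3 and 1 UMIs) were near absent. Among 7 genes of ligands and their release, Scube2, for a secreted factor that helps release the ligand, had 43 and 88 UMIs, a log2 ratio of 0.82 (interval 0.28 to 1.39). The most abundant, Scube1 and Disp1, were at -0.35 and -0.01.

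All 4 genes of co-receptors and the second receptor were within 1.5-fold, among them Gpc3 at 0.18 and Gas1 at -0.07. So were all 21 genes of the cilium and transduction, with the kinase genes Gsk3b at 0.02 and Csnk1a1 at -0.06. Of 19 listed genes known to respond to the pathway, 10 had at least 100 UMIs. Of these 10, 2 passed 1.5-fold, both higher in the knockout-labelled library, where 2.12% of all genes were. Nkx2-1, a ventral forebrain factor, had 115 and 239 UMIs (log2 ratio 0.85, interval 0.52 to 1.18). Irx3, a factor of the neural tube that the ligand is known to repress in ventral cells, had 70 and 162 UMIs (1.00, interval 0.59 to 1.43). The cell-cycle gene Ccnd2 was at -0.35 and Bcl2 at -0.05.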

How the data were processed

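Single nuclei of fetal mouse brain were profiled in 1 library per genotype. The authors deposited UMI counts per gene and barcode, per the file headers from Cell Ranger 6.1.1. The submitters' processing notes name Cell Ranger 3.0.1, STAR and GRCm39. The annotation, strand and intron settings are not given in the sources used here.

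From the counts, nuclei with at least 500 genes and at most 5% mitochondrial UMIs were kept. Scanpy 1.11.5 clustered both libraries together (3220 variable genes without the 9 members, 30 components, 15 neighbours, Leiden resolution 1). Names needed at least 3 fixed markers, and sub-clustering (resolution 0.5) removed 2 names whose markers were in under 50% of nuclei. Scrublet's automatic threshold marked 0 nuclei in each library, so it did not work here. Doublets were kept, and the 8% highest scores (535 and 534 nuclei) were left out as an alternative. Thinning to 1000 UMIs left 5840 and 5569 nuclei.

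Summed counts gave CPM with exact Poisson intervals, shares with Clopper-Pearson intervals and ratios with exact conditional binomial intervals, at 95%. Only the ratios and their intervals were tested on simulated data. The simulated counts were Poisson draws, so the test does not cover spread beyond counting error. A count of 0 allows 3 counts. Differences past 1.5-fold were counted among genes with at least 100 UMIs, and past 2-fold within classes of at least 200 nuclei per library among genes with at least 20 UMIs. Named genes are the members, the listed pathway genes past 1.5-fold or the 2 most abundant of each role, the 5 genes closest to each member, and leading genes of clusters. Dhh, Ihh, Dbx1 and, among the responding genes, Foxa1 were named after their values were seen. Members and lists were chosen with earlier results of these data known. Alternatives covered filters, thinning, doublets, resolution, pseudocount and rank correlation.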

Additional observations from a re-analysis of the deposited data

Results flagged for a closer look

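Boc differed between the libraries in opposite directions in different clusters. Its log2 ratio was -0.97 in fibroblast-like cluster 19 (44 and 26 UMIs) and 1.57 in other excitatory neuron-like cluster 3 (22 and 70 UMIs). Smo was at -0.75 in choroid plexus epithelium-like cluster 21 (49 and 37 UMIs) and at 1.23 in low-UMI cluster 0 (11 and 33 UMIs). Gli2 was at -1.45 in other excitatory neuron-like cluster 14 (17 and 6 UMIs) and at 0.52 in cluster 1 (44 and 116 UMIs). In each pair both counting intervals lay outside 0 on opposite sides. With 1 library per genotype the difference between clusters was not tested, and these are the extremes of 117 pairs of a gene and a cluster.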

How the results depend on the processing

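No replicate could be left out, and counting error is the only error given. No paired analysis was possible because each genotype has 1 library. No value called in the main setting changed direction under the alternatives run. Counting genes from 20 UMIs added Shh, so 1 member passed 1.5-fold. Within classes, 2 passed 2-fold at resolution 0.5 (Boc and Hhip) and 2 at resolution 2 (Gli2 and Hhip, and no longer Boc), 3 with high doublet scores left out (Boc, Hhip and Gli1) and 4 with at least 1000 genes per nucleus (Boc, Gli1 and Hhip in 2 classes). Thinning put the share of Gli1 nuclei with Ptch1 at 23.1% and 30%. Of the 30 closest genes, 12 were shared with Spearman's rho and 15 with a pseudocount of 1 CPM. Thinned, the log2 ratio of Gli1 over all nuclei was -0.42, against 0.15 unthinned, so its sign changed. After seeing the data, clusters 1 and 4 were left out, which gave -0.19 for Cdon, -0.23 for Gli3, -0.67 for Hhip and 0.39 for Gli1. Over its alternatives the log2 ratio of Ptch1 ran from 0.28 to 0.38 over all nuclei and from 0.12 to 0.22 at equal composition, that of Shh over all nuclei from 0.98 to 1.61 and that of Hhip from -0.67 to -0.06.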
